A study of Mus musculus with 24 samples.

Results

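The growth hormone and IGF1 axis of the liver was described by 10 genes: the receptors Ghr and Prlr, the transducer Stat5b, the feedback inhibitors Socs2 and Cish, the repressor Bcl6, the hormone Igf1, and the carrier proteins Igfals, Igfbp2 and Igfbp4. They were taken by gene name, as 10 of 27802 genes in the deposited tables, in all 24 mouse liver libraries. Growth hormone from the pituitary binds its receptor (Ghr) on hepatocytes, which acts through the kinase JAK2 on STAT5 proteins. STAT5B switches on Igf1 and Igfals, whose products circulate as a complex with an IGF-binding protein, and Socs2 and Cish, whose products damp the same signal. Rodent males secrete growth hormone in pulses and females more continuously, and many liver genes follow that pattern, with BCL6 acting in male liver as a repressor at sites that STAT5 also binds.

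The study asked how the loss of one kind of AgRP neuron in the arcuate nucleus, a feeding centre of the hypothalamus, changes the liver at a temperature that costs mice heat and at a warmer one. A virus carrying a Cre-dependent caspase 3 was injected into the arcuate nucleus of adult mice whose Cre, from a BAC-AT1A-Cre transgene, follows the angiotensin receptor type 1, and liver was frozen 2 weeks after surgery. Mice were kept at 22 °C or 30 °C from surgery onwards. There were 3 ablated females, 3 ablated males, 3 control females and 3 control males at 22 °C, and 3 ablated females, 3 ablated males, 4 control females and 2 control males at 30 °C. All 12 ablated mice carried Cre. Among controls 4 carried Cre (22 °C male 1, both 30 °C males and 30 °C female 4) and 8 did not, so ablation and Cre are largely carried together. The sources used here do not say what was injected into the controls. All 12 mice at 22 °C were of the Ai39 x BAC-AT1A-Cre cross (Halo+/-), whose Ai39 allele is a Cre-dependent halorhodopsin. At 30 °C 7 mice were of that cross, 3 were BAC-AT1A-Cre without it (ablated male 3, control male 1 and control female 3), and 2 were of the Ai9 x BAC-AT1A-Cre cross with a Cre-dependent red reporter (ablated male 2, R+/+, and ablated female 3, R+/-). No control was of the Ai9 cross. The neurons lie in the brain, so liver RNA does not check their loss. The labels number the 24 libraries as replicates of their groups, and each is taken as a separate mouse. The tests set differences between groups against the spread between mice.

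Depth ran from 21691653 to 34851108 reads in genes per library, and each of the 10 genes passed the filter on low counts. The summed level of 8 hepatocyte markers was 73903 to 122690 CPM (reads per gene scaled to a common library size), with no marker at 0 throughout, as the liver label says. Mitochondrial transcripts took 7.53% to 37.3% of reads, lowest in 30 °C ablated female 3 and highest in 22 °C control female 3. By number of genes the library of 30 °C control male 1 stood apart, with 13601 genes at 10 reads or more, fewer than any other library. By counts over all genes 22 °C control female 3 differed most from the others of its group. Its chi-square per degree of freedom was 421 and 273, against 183 between the 30 °C control males. In RNA of whole liver, fewer cells of a type and less RNA per cell cannot be told apart. All 10 genes are protein-coding. Antisense or read-through genes lie over 4 of them, and the largest is Igf1os, which reached 821 reads (35.0 CPM) in 1 library where its partner Igf1 had at least 12286 reads in every library. Gm17040, over Cish, reached 90 reads, and the genes over Bcl6 and Prlr reached at most 12. The sources used here do not state whether counting used strand, so reads of such pairs cannot be told apart.

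STAT5 dimers bind the letters TTCNNNGAA, a palindrome that reads the same on both strands, and 4 of the 9 genes with a promoter entry in RefSeq (GRCm38.p6) held it within 250 bases before to 50 bases after a listed start. These were Cish, Bcl6, Igfals and Prlr, in 6 of 17 member windows, against 8.3% of all 32851 windows of 300 bases. Socs2 had no entry. The stretches shown are those of all 4 genes with a match. Whether a match goes with the sex difference or the spread of a gene was not tested. A match is a description of the letters, not a measured site. Cish and the second start of Bcl6 each held more than 1 match, which 0.457% of all windows did. Capitals mark the 9 letters of the motif, each stretch runs 5′ to 3′ on the strand of its gene, and coordinates are of GRCm38.p6, not of the build of the deposited tables.
Cish, chr9:107296654-107296683, plus strand, 5 bases before to 25 after the start: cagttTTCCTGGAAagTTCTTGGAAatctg
Bcl6 first start, chr16:23988952-23988981, minus strand: tagcaaattagTTCTCAGAAttccagaggc
Bcl6 second start, chr16:23981352-23981461, minus strand: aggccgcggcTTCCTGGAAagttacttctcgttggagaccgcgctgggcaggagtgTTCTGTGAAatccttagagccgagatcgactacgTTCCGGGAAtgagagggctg
Igfals first start, chr17:24877598-24877627, plus strand: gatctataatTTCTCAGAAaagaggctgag
Igfals second start, chr17:24878163-24878192, plus strand: ctgccaggtgTTCCTAGAAgaggccctggg
Prlr second start, chr15:10223786-10223815, plus strand: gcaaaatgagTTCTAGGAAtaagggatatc

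The 10 genes spanned a wide range of levels. Per kilobase of gene length (RPKM, over all 24 livers), the binding proteins were highest, Igfbp4 at 262 ± 66.4 (SD, n = 24) and Igfbp2 at 232 ± 89.6. Igf1 followed at 93.1 ± 18.7 RPKM, then Ghr at 37.8 ± 9.29 and Igfals, the acid-labile subunit that holds IGF1 in the circulating complex, at 32.6 ± 10.2. The receptor Prlr stood at 11.2 ± 7.43 RPKM and the transducer Stat5b at 9.59 ± 1.66. Socs2 (6.99 ± 4.42 RPKM), Bcl6 (5.65 ± 4.33) and Cish (4.84 ± 3.13) were lowest. Neighbours in this order lay within each other's SD except Igf1 against both Igfbp2 above it and Ghr below it, Igfals against Prlr, and Socs2, which lay outside the SD of Stat5b although Stat5b lay within that of Socs2.

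**Figure D1:**
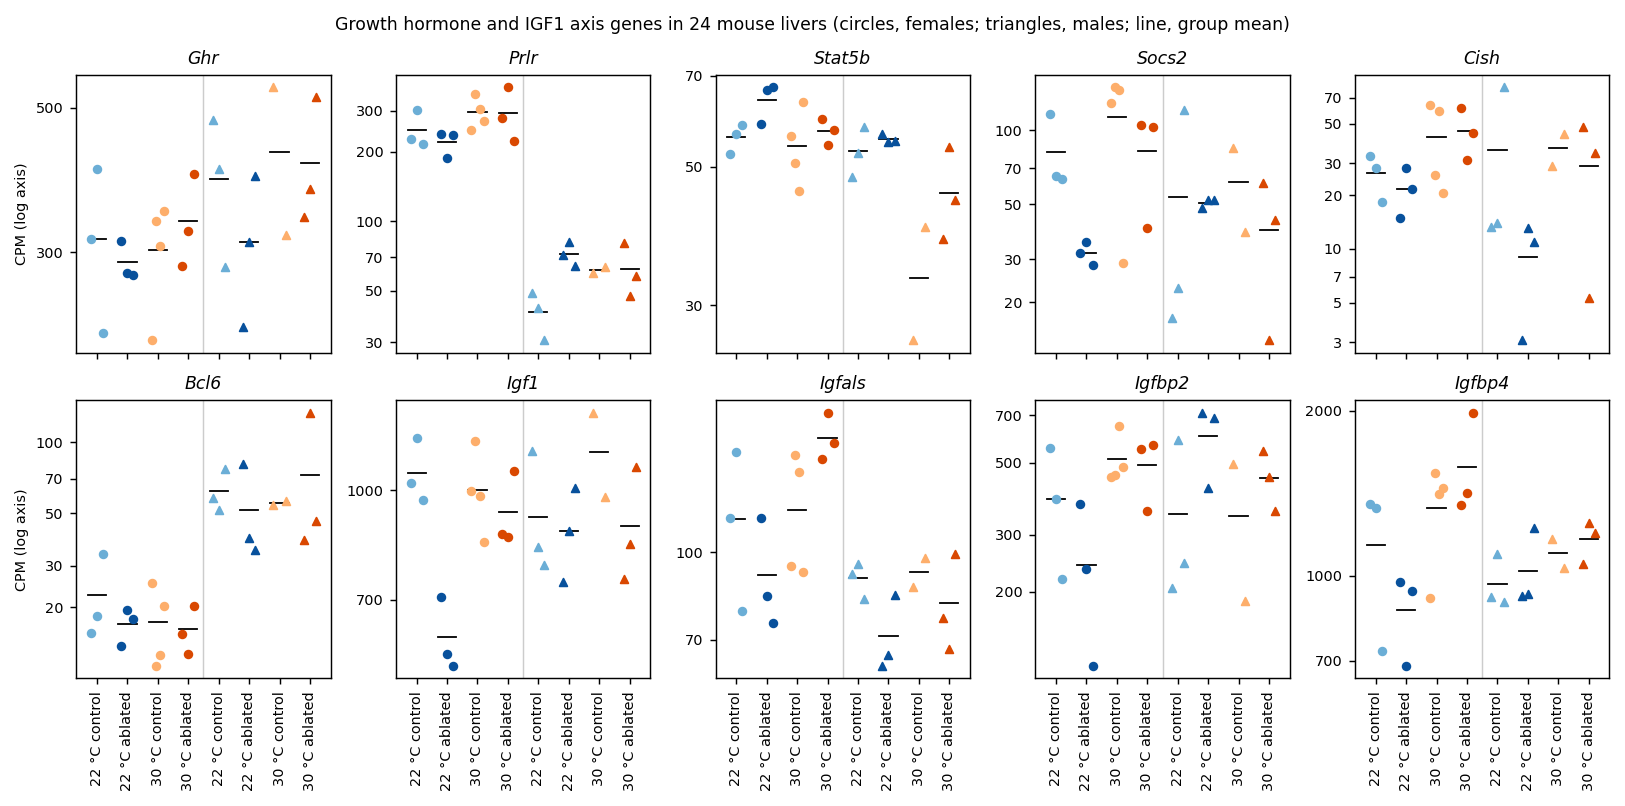
Level of each gene in CPM on a log axis in the 24 livers, by temperature and ablation, with females as circles, males as triangles and a line at each group mean. Prlr is higher and Bcl6 lower in every female than in any male, while Socs2 and Cish spread over more than 10-fold.

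None of the 10 genes passed the test for ablation at either temperature or for temperature, while Prlr, Bcl6 and, in ablated mice, Igfals passed it between the sexes. In every comparison edgeR's quasi-likelihood test was run over 20213 genes with Benjamini-Hochberg adjustment, and calls were made below an adjusted p of 0.05. For ablated against control at 22 °C 0 of 10 genes were called, where the background was 0.094% of genes. At 30 °C 0 of 10 were called (background 0%), as were 0 of 10 between 22 °C and 30 °C among controls (0.0346%) and among ablated mice (0.0346%). No difference of the ablation effect passed between temperatures (0 called, background 0%) or between sexes at 22 °C or at 30 °C (0 called, background 0% in both). DESeq2 also called 0 of the 10 genes in these 7 comparisons. At an unadjusted p under 0.05, 3 of 10 passed for ablation at 22 °C (background 8.34%), 1 for ablation at 30 °C (6.96%), 2 for temperature in controls (12.6%), 4 for temperature in ablated mice (9.78%), 0 for the difference between temperatures (7%), and 3 and 0 for the differences between sexes (6.26% and 6.64%). Between the sexes 2 of 10 were called in controls, against 2.81% of all genes, and 3 of 10 in ablated mice, against 2.24%.

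**Figure D2:**
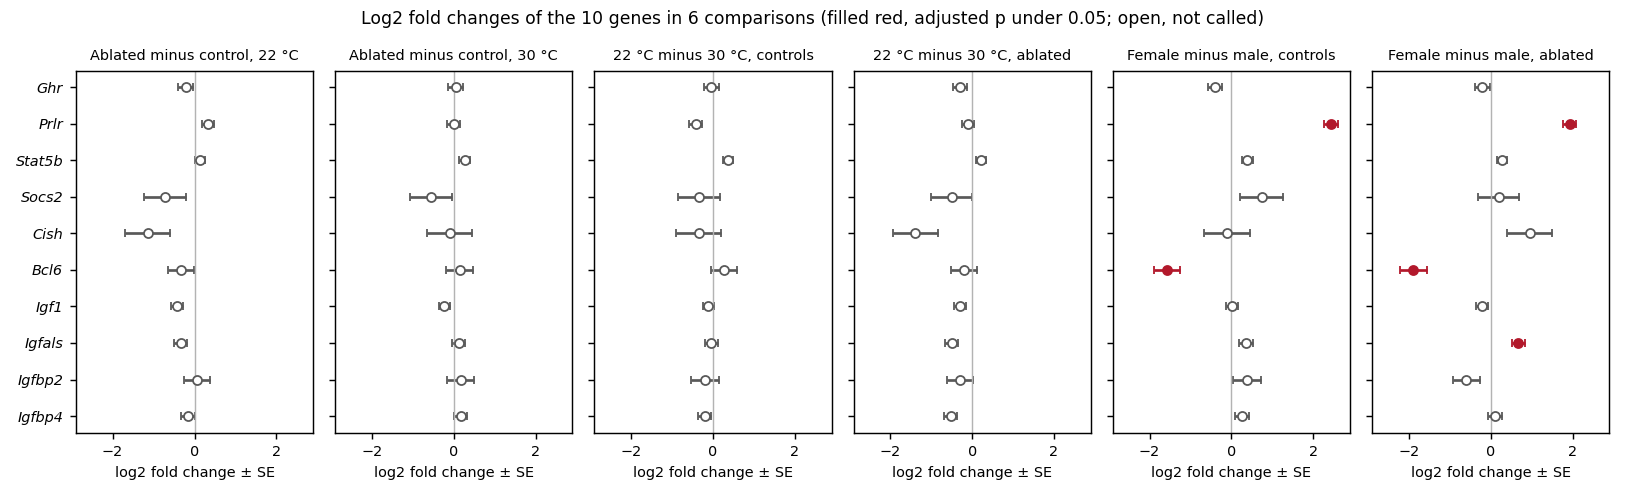
Log2 fold change with its SE of the 10 genes in 6 comparisons, filled red where the adjusted p was under 0.05 and open otherwise. Only Prlr, Bcl6 and Igfals are filled, all of them between the sexes.

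Prlr, the receptor of prolactin and placental lactogen, which also signals through STAT5, was the gene that separated the sexes most. In control females it ranged from 217 to 356 CPM with a median of 272 (n = 7), and the 5 control males held 49.2, 42.2, 30.6, 59.5 and 63.7 CPM. Ablated females ranged from 187 to 379 CPM with a median of 237 (n = 6), and ablated males from 47.6 to 81.1 with a median of 67.8 (n = 6). No male reached the lowest female in either comparison. By edgeR's quasi-likelihood test the log2 difference (females minus males) was 2.44 ± 0.18 (SE) in controls, with an adjusted p of 2.8e-11, and 1.93 ± 0.16 in ablated mice, with an adjusted p of 1.19e-09. These 2 comparisons share no mice. Prlr kept its call in controls and in ablated mice without any single library.

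Males at 22 °C showed a further Prlr difference that did not pass the test. The ablated males held 71.3, 81.1 and 64.3 CPM and the control males 49.2, 42.2 and 30.6. All 3 ablated livers lay above all 3 controls, as 7.97% of genes did in this direction, and the log2 difference of 0.83 ± 0.22 had an edgeR quasi-likelihood adjusted p of 0.209. In the same males summed erythroid markers were 137 to 147 CPM in ablated and 261 to 516 in control mice, and mitochondrial transcripts took 17.7% to 19.2% and 19.5% to 29.6% of reads, both without overlap. Their part in the values of Prlr and of Cish was not tested. In females at 22 °C the Prlr difference was -0.17 ± 0.22, with overlapping groups. The difference of the Prlr effect between the sexes was -1.002 ± 0.31 on the log2 scale, with an adjusted p of 0.491. Between control males at 22 °C and at 30 °C (59.5 and 63.7 CPM) Prlr was -0.60 ± 0.24, with groups that did not overlap, in a comparison where that was so for 18.6% of genes.

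Bcl6, the repressor that opposes STAT5 at many liver genes, ran the other way. Control females held 11.3 to 33.7 CPM with a median of 18.4 (n = 7), and the 5 control males 57.9, 51.8, 77.3, 54.5 and 56.6. Ablated females held 12.7 to 20.3 CPM with a median of 16.6 (n = 6), and ablated males 35.0 to 134 with a median of 42.9 (n = 6). Every male lay above every female. The log2 difference (females minus males) by edgeR's quasi-likelihood test was -1.57 ± 0.32 in controls (adjusted p 0.00943) and -1.89 ± 0.32 in ablated mice (adjusted p 0.0025). Groups failed to overlap in 1.95% of genes between the sexes in controls and in 1.67% in ablated mice, and of the 10 genes Prlr and Bcl6 did so in both. Without 30 °C control male 1, the library that stood apart, the Bcl6 value in controls was -1.57 with an adjusted p of 0.05002, and with a term for Cre it was -1.52 with an adjusted p of 0.111. Ablated male 2 at 30 °C, of the Ai9 cross, held the highest Bcl6 of all livers, and without both Ai9 mice the difference in ablated mice was -1.60 ± 0.27 (adjusted p 0.00149).

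Igfals was higher in females among ablated mice. Ablated females held 115, 83.6 and 74.9 CPM at 22 °C and 146, 176 and 156 CPM at 30 °C, and ablated males held 62.9, 65.8 and 84.1 at 22 °C and 76.4, 67.5 and 99.4 at 30 °C. The sexes overlapped at 22 °C and not at 30 °C. The share of all genes without overlap between the sexes within 1 temperature was not counted. The ablated mice at 30 °C also mixed lines, which those at 22 °C did not. The log2 difference was 0.67 ± 0.16 in ablated mice (edgeR quasi-likelihood adjusted p 0.0135) and 0.36 ± 0.16 in controls (0.292), where females held 78.6 to 150.4 CPM (n = 7) and males 82.7 to 97.7 (n = 5). Whether the sex difference itself differed by ablation was tested at each temperature. The difference of effects was 0.01 ± 0.31 at 22 °C and 0.62 ± 0.32 at 30 °C, with adjusted p of 1.00 and 0.768. The call in ablated mice was lost without 22 °C ablated female 1 (0.57, adjusted p 0.0736), 22 °C ablated male 1 (0.63, 0.0554) or 30 °C ablated male 2 (0.61, 0.0569), and without both Ai9 mice (0.62, 0.0639).

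Igf1, the hormone the liver secretes under growth hormone, was lowest in ablated females at 22 °C, though not beyond the test. Those 3 livers held 707, 587 and 565 CPM, against 1023, 1184 and 969 in control females at 22 °C. They were the lowest 3 of all 24 livers, and the next was a 22 °C ablated male at 742. Ablated males at 22 °C held 742, 875 and 1007 CPM and their controls 1136, 832 and 784, ablated females at 30 °C held 866, 860.3 and 1064, and ablated males at 30 °C held 749, 839.5 and 1078. In females at 22 °C the log2 difference was -0.77 ± 0.20, with an edgeR quasi-likelihood adjusted p of 0.257, and in males it was -0.07 ± 0.20 (adjusted p 0.993). The difference between the sexes was -0.70 ± 0.28 (adjusted p 0.726), and over both sexes ablation at 22 °C gave -0.42 ± 0.14 (adjusted p 0.354). DESeq2 gave -0.42 ± 0.13 with an adjusted p of 0.083, and with a term for Cre the value was -0.49 ± 0.22 (adjusted p 1). At 30 °C the ablation difference was -0.23 ± 0.15 (adjusted p 0.797).

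In females at 22 °C, 3 of the 10 genes had ablated and control groups that did not overlap, where 11.9% of all genes did. Igf1 and Socs2 lay lower in the ablated females (4.99% of genes did) and Stat5b higher (6.91%). Socs2 held 31.7, 35.2 and 28.4 CPM in ablated females and 117, 65.0 and 63.5 in control females, a log2 difference of -1.36 ± 0.72 with an edgeR quasi-likelihood adjusted p of 0.912. Stat5b held 58.6, 66.5 and 67.1 CPM against 52.5, 56.4 and 58.4, a log2 difference of 0.20 ± 0.17 (adjusted p 1). Summed macrophage markers also did not overlap in these females, at 276 to 317 CPM in ablated and 192 to 208 in control mice, nor did endothelial markers, at 223 to 258 and 176 to 222. Stellate and fibroblast markers were 133 to 208 and 91.6 to 152, hepatocyte markers 88593 to 95995 and 73903 to 120680, and the part of any of these in the result was not tested. In males at 22 °C 2 of the 10 genes did not overlap, against 15.3% of genes: Prlr, above, and Cish, with 3.08, 13.1 and 10.9 CPM in ablated and 13.3, 13.9 and 80.1 in control males. That Cish difference was -1.99 ± 0.80 (adjusted p 0.590), and over both sexes it was -1.14 ± 0.55 (adjusted p 0.609), -0.45 without 22 °C control male 3, and 0.22 ± 0.81 with a term for Cre. At 30 °C 0 of the 10 genes separated ablated from control females (background 4.44%) or males (15.5%).

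No gene of the 10 passed the test between ablated mice at 22 °C and at 30 °C, and whether that difference depended on sex was not tested. In ablated females 5 of the 10 genes had groups that did not overlap, all lower at 22 °C: Igf1, Igfals, Igfbp4, Socs2 and Cish. Of all genes 20.8% did not overlap in this comparison, and 10.3% of all genes were lower without overlap. Igfbp4, a binding protein that holds IGF1 from its receptor, held 974, 685 and 938 CPM at 22 °C and 1347, 1414 and 1983 at 30 °C, a log2 difference of -0.87 ± 0.23 (edgeR quasi-likelihood adjusted p 0.194). Igfals gave -0.81 ± 0.22 (adjusted p 0.218) and Igf1 -0.59 ± 0.20 (adjusted p 0.312). Socs2 gave -1.38 ± 0.72 and Cish -1.09 ± 0.77, with adjusted p of 0.521 and 0.662. Mitochondrial transcripts moved with this comparison: they took 18.3%, 27.6% and 21.9% of reads in ablated females at 22 °C and 14.5%, 13.9% and 7.53% at 30 °C. The 3rd of the latter was an Ai9 mouse, which held the highest Igf1 and Igfbp4 of its group. Summed hepatocyte markers ran from 88593 to 95995 CPM at 22 °C and from 99881 to 118890 at 30 °C in these females, and stellate and fibroblast markers from 133 to 208 and from 38.8 to 152. Their part in the result was not tested.

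Over both sexes, temperature in ablated mice gave Igfbp4 -0.53 ± 0.16, Igfals -0.50 ± 0.16, Cish -1.39 ± 0.55 and Igf1 -0.31 ± 0.14 on the log2 scale (22 °C minus 30 °C), with edgeR quasi-likelihood adjusted p of 0.253, 0.263, 0.431 and 0.479. Of the 10 genes 9 had a negative value, with a median of -0.31 against 0.00 over all genes. Among Ai39 x BAC-AT1A-Cre mice alone, with sex as an additive term, the values of Igfbp4, Igfals, Cish and Igf1 were -0.40, -0.60, -1.63 and -0.16. In controls the median of the 10 was -0.15 and the 4 same genes gave -0.21, -0.04, -0.35 and -0.11. The comparisons of ablation and of temperature share mice, so these values are given side by side only.

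Stat5b, which carries the growth hormone signal to the nucleus, was the steadiest of the 10 genes between mice of a group, and it was low in control males at 30 °C. Those 2 livers held 26.4 and 40.0 CPM, against 48.2, 52.6 and 57.9 in control males at 22 °C. In the other 30 °C groups it ran from 38.3 to 63.6. Stat5b was the gene of the 10 that also separated ablated males by temperature, at 56.4, 54.7 and 55.0 CPM at 22 °C and 38.3, 53.8 and 44.2 at 30 °C (background 14.2%), and 0 of the 10 separated control females (5.24%). For temperature in controls the log2 difference was 0.36 ± 0.13 (edgeR quasi-likelihood adjusted p 0.26). The value rested on 30 °C control male 1, the library that stood apart: without it Stat5b was 0.23 ± 0.14 (adjusted p 0.868), and without the other 30 °C control male it was 0.53 ± 0.15 (adjusted p 0.0198). Either fit leaves that group with 1 library, which is assumed to vary like the libraries of the other groups. Stat5b was also 0.39 ± 0.13 higher in control females than in control males, with an adjusted p of 0.104 by edgeR and 0.0354 by DESeq2, and without 30 °C control male 1 it was 0.26 ± 0.14 (adjusted p 0.559).

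Ghr, the receptor at the head of the axis, varied 2.44-fold over all livers, from 220.1 to 538 CPM, and no group stood clear of its counterpart. Control females held 226 to 403 CPM at 22 °C and 220.1 to 347 at 30 °C, and control males 285 to 479 and 319 to 538. Ablated females held 278 to 313 CPM at 22 °C and 286 to 396 at 30 °C, and ablated males 231 to 393 and 340 to 520.2. With the sexes or the temperatures averaged, the log2 differences of Ghr for ablation, temperature and sex ran from -0.40 ± 0.18 between the sexes in controls (edgeR quasi-likelihood adjusted p 0.272) to 0.05 ± 0.18 for ablation at 30 °C.

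Igfbp2, a binding protein known to be raised when growth hormone action is low, varied 6.03-fold, from 118 CPM in 22 °C ablated female 3 to 713 in 22 °C ablated male 1. Ablated females at 22 °C held 373, 235 and 118 CPM and ablated males 713, 418 and 686. Control females at 22 °C held 556, 386 and 219, and control males 205, 588 and 246. The groups overlapped in each comparison with controls. The ablation effect at 22 °C differed between females and males by -1.48 ± 0.65 (edgeR quasi-likelihood adjusted p 0.783).

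Socs2 and Cish, the feedback inhibitors, differed more between mice of the same group than nearly all genes of their level. The SD of log2 CPM around the 8 group means was 1.00 for Cish, and 0.42% of the 2379 tested genes within 0.5 of its mean log2 CPM had a larger one. For Socs2 it was 0.917, with 0.685% of 1607 such genes above it. Bcl6 (0.552, 2.91%) and Igfbp2 (0.593, 5.05%) also varied widely, while Igf1 (0.218, 69.2%) and Stat5b (0.178, 82.1%) did not. At 22 °C control males held 17.3, 22.9 and 121.0 CPM of Socs2 and 13.3, 13.9 and 80.1 of Cish, so 1 liver, the 3rd, was high in both. At 30 °C ablated males held 61.2, 14.02 and 43.0 CPM of Socs2 and 47.9, 5.31 and 34.3 of Cish, and the 2nd, the Ai9 mouse, was low in both and held the highest Bcl6, at 134 CPM. Spans from the lowest to the highest liver were 26.0-fold for Cish and 10.7-fold for Socs2.

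**Figure D3:**
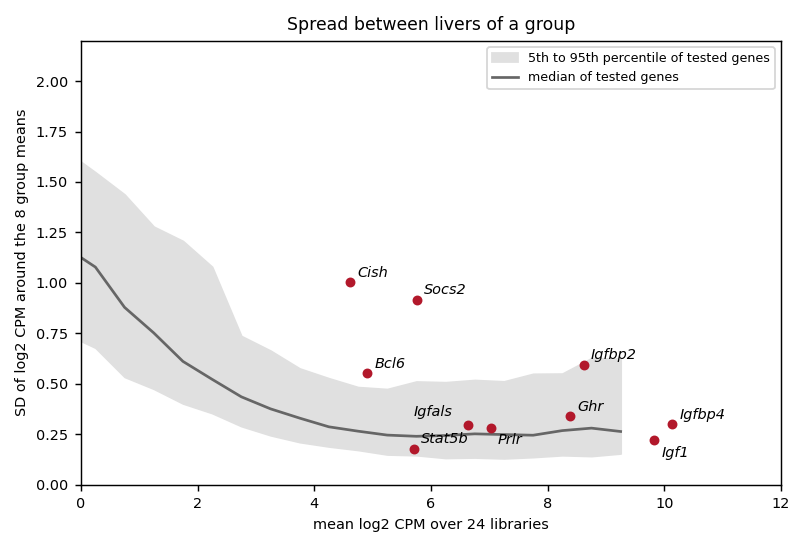
SD of log2 CPM around the 8 group means (vertical axis) against mean log2 CPM over 24 libraries (horizontal axis) for the 10 genes as red points, with the median and the 5th to 95th percentile of tested genes in grey. Cish, at 1.00, and Socs2, at 0.917, lie above the grey band, as does Bcl6.

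Within groups some of the genes moved together from mouse to mouse. Deviations of log2 CPM from the group mean were correlated over 24 livers for all 45 pairs, with 100000 permutations of mice within groups and Benjamini-Hochberg adjustment over the 45 pairs; the pairs were looked at after earlier values had been seen. By both Pearson's r and Spearman's rho 4 pairs passed. Ghr correlated with Igf1 (r = 0.754, adjusted permutation p 0.0203, rho = 0.676, adjusted 0.041) and with Igfbp4 (r = 0.711, adjusted permutation p 0.0175, rho = 0.712, adjusted 0.0135). Bcl6 correlated with Stat5b (r = 0.611, adjusted permutation p 0.0175, rho = 0.714, adjusted 0.00945) and inversely with Igfals (r = -0.712, adjusted permutation p 0.038, rho = -0.75, adjusted 0.0264). Socs2 and Cish gave r = 0.743 (adjusted permutation p 0.038) and rho = 0.657 (adjusted 0.0539). By r alone Igf1 and Igfals (r = 0.578, adjusted permutation p 0.038) and Bcl6 and Prlr (r = -0.652, adjusted permutation p 0.038) also passed, and by rho alone Ghr and Igfals (rho = 0.621, adjusted permutation p 0.0489). Without the 2 livers farthest from the median of the first gene of each pair, r was 0.812 for Ghr and Igf1, 0.601 for Ghr and Igfbp4, 0.749 for Stat5b and Bcl6, -0.701 for Igfals and Bcl6, and 0.672 for Socs2 and Cish. For the pairs with Bcl6 these livers were the farthest in Stat5b or in Igfals, not in Bcl6. The liver farthest above its group mean in Bcl6 (by 1.10), 30 °C ablated male 2 of the Ai9 cross, thus stayed in.

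The same pairs were taken within temperature and within sex. At 22 °C and at 30 °C r was 0.854 and 0.654 for Ghr and Igf1, 0.602 and 0.647 for Stat5b and Bcl6, -0.724 and -0.723 for Igfals and Bcl6, and 0.789 and 0.714 for Socs2 and Cish. Ghr followed Igf1 closely in males (r = 0.936) and less so in females (r = 0.469), a difference that was not tested. Ghr and Igfbp4 gave 0.669 and 0.766 by temperature. Without 30 °C control male 1 the 5 values ran from 0.672 for Stat5b and Bcl6 to 0.766 for Socs2 and Cish, and -0.715 for Igfals and Bcl6. The livers of a group share treatment and, mostly, line, and their libraries share a common scaling. Mitochondrial share also varied within groups. Control female 3 at 22 °C (37.3%) held the lowest Ghr, Igfals and Igfbp4 and the highest Bcl6 of her group. Control female 1 at 30 °C (22.1%) held the lowest Ghr and Igfbp4 and the highest Bcl6 of hers. Control males 1 and 3 at 22 °C (28.8% and 29.65%) held the highest and the lowest Ghr of theirs. The part of mitochondrial share in these correlations was not tested.

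**Figure D4:**
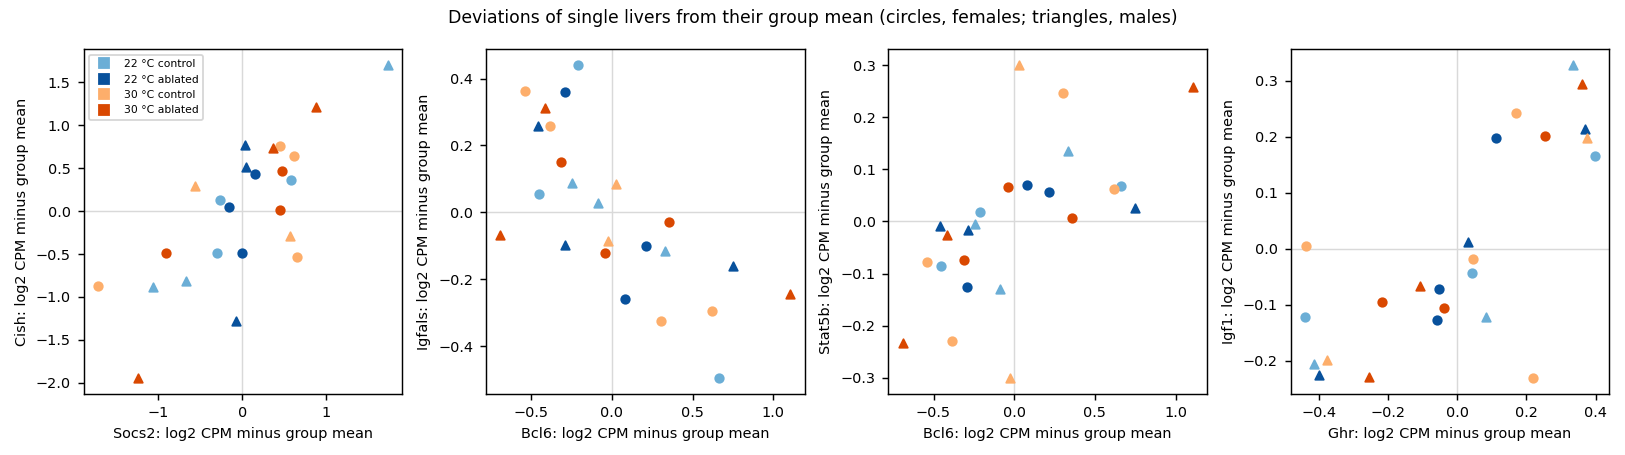
Deviation of each of 24 livers from its group mean (log2 CPM) for 4 pairs of genes, with females as circles, males as triangles and colours for temperature and ablation. Socs2 and Cish deviate together, as do Bcl6 with Stat5b and Ghr with Igf1, and Igfals is low where Bcl6 is high.

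The genes whose deviations were most like those of 3 members were listed among the 8309 other protein-coding genes whose log2 CPM averaged 3 or more, by Spearman's rho over 24 livers, as a description. For Igf1 these were Dcun1d1 (rho 0.865), Camkk2 (0.863), Egfr (0.850), Klhl2 (0.850) and Selenbp2 (0.841). For Socs2 they were Keg1 (0.805), Slc25a30 (0.782), Slc17a2 (0.779), Cul4b (0.743) and Vmp1 (0.717). For Bcl6 they were Adsl (0.777), Necap2 (0.777), Tacc2 (0.759), 1700017B05Rik (0.732) and Ier2 (0.728).

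Liver genes that depend on the sex pattern of growth hormone separated females from males in both settings. The female-biased and male-biased lists were chosen for sex bias, with earlier results of these data known. Their outcome between the sexes was thus built in, and the counts are a description only. Of 14 genes listed as female-biased 14 were called higher in females in controls and 14 in ablated mice, where 2.81% and 2.24% of all genes were called, with a median log2 difference of 8.56 and 7.36, also where the genes at 0 reads in all males (4 and 2) were set to a bound of 3 reads per group. In controls those of lowest p were Cyp17a1, Cyp2c69, Cyp2b9 and Cyp2a4. The cytochrome Cyp2b9 held 358 ± 59.0 CPM in control females (SD, n = 7) and 4.56 ± 9.07 in control males (n = 5). Of 15 genes listed as male-biased 13 were called lower in females in controls and 14 in ablated mice, with medians of -5.36 and -4.53 against 0.08 and 0.01 over all genes. Cyp4a12b, Cyp2d9, Mup20 and Nudt7 had the lowest p in controls. Mup20, the pheromone protein darcin, held 59.6 ± 17.04 CPM in control females and 5031 ± 2566 in control males. Of 11 regulators of the sex-biased response 5 were called higher in females in controls and 5 in ablated mice. Among them Cux2, Trim24, Tox and Esr1 were called in both settings. This list was also chosen with earlier results of these data known, so its counts too are a description only. Cux2, a female-specific repressor of male-biased genes, held 298 ± 195 CPM in control females and 1.35 ± 0.83 in control males.

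No member of these lists was called for ablation or temperature. The comparisons of ablation at 22 °C, of the difference between temperatures and of temperature in ablated mice share the ablated mice at 22 °C. Their values below are therefore not separate results. Genes of a list can also move together, so counts of positive or negative values are a description only. For ablation at 22 °C 0 of 15 male-biased genes were called and 5 passed an unadjusted p under 0.05 by edgeR, where 8.34% of all genes passed unadjusted, while 14 of 15 had a negative value, with a median of -1.01 against 0.02 over all genes. Among them the transporter Slco1a1 gave -2.67 ± 0.66 (adjusted p 0.178) and the urinary protein Mup3 -1.01 ± 0.28 (adjusted p 0.227). At 30 °C the median of the male-biased list was 0.07, and for the difference between temperatures it was -0.84, with 14 of 15 values negative. These medians average the sexes. The ablation effect in females minus that in males had a median of 0.91 at 30 °C, with 14 of 15 values positive. Over all genes that median was -0.09. At 22 °C the list gave 0.24 with 10 of 15 positive, and 0 of 15 were called at either temperature. The female-biased list had a median of 0.48 for ablation at 22 °C and 0.23 at 30 °C, with 0 of 14 called and 4 and 0 unadjusted (8.34% and 6.96% of all genes). Its effect in females minus that in males had a median of -1.72 at 22 °C, with 10 of 14 values negative. At 30 °C that median was -1.19, with 11 of 14 negative, and 0 of 14 were called at either temperature. Some of these genes were at 0 reads in all males, so their medians describe fitted values only. Of 8 genes that growth hormone restrains in liver, 0 were called, 3 passed unadjusted and 7 were positive for ablation at 22 °C, with a median of 0.63, and the median at 30 °C was -0.39. For the difference between temperatures 8 of 8 were positive, with a median of 1.14. For 22 °C against 30 °C in ablated mice the male-biased list had a median of -0.86, with 13 of 15 negative and 5 unadjusted (9.78% of all genes), and in controls 0.05 with 0 unadjusted. The female-biased list had -0.75 in controls, with 6 of 14 unadjusted (12.6% of all genes), and -0.22 in ablated mice, with 4. The restrained genes had 0.75 in ablated mice, with 7 of 8 positive and 3 unadjusted, and -0.32 in controls, with 1. Among these the fatty acid transporter Cd36 gave 1.37 ± 0.45 at 22 °C (adjusted p 0.39). Between the sexes in ablated mice 1 of the 8 restrained genes was called, where 2.24% of all genes were. It was Vldlr, a lipoprotein receptor, higher in females than in males (20.1 ± 11.1 against 2.72 ± 1.95 CPM, n = 6 each). Its log2 difference was 2.79, with an edgeR adjusted p of 0.0359. Between the sexes in controls 0 of the 8 were called (2.81% of all genes).

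Of 15 genes of growth hormone receptor signalling, such as Jak2, Stat5a and Socs3, 0 were called in any comparison, and their median was -0.07 for ablation at 22 °C and 0.09 at 30 °C. Of 14 IGF ligands, receptors and binding proteins 13 were tested, 0 were called for ablation or temperature, and the median was 0.29 for ablation at 22 °C and 0.06 at 30 °C, against 0.02 and 0.05 over all genes. For temperature in ablated mice it was 0.26 against 0.00 over all genes, with 3 of 13 unadjusted, where 9.78% of all genes passed unadjusted. Irs2, an adaptor of the insulin and IGF1 receptors, was the 1 gene of 13 called between the sexes in controls, where 2.81% of all genes were called. It held 27.4 ± 5.85 CPM in control females and 17.01 ± 4.46 in control males (log2 0.67, edgeR adjusted p 0.0335). Between the sexes in ablated mice 0 of 13 were called (2.24% of all genes).

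Markers of other liver cells were measured beside the ablation comparison at 22 °C. The summed level of 6 cholangiocyte markers was 57.0 to 245 CPM in ablated mice and 56.7 to 90.3 in controls, and that of 9 stellate and fibroblast markers 133 to 315 and 91.6 to 177. Of 8 macrophage markers the sum was 78.7 to 317 CPM in ablated mice and 168 to 211 in controls, and of 8 endothelial markers 166 to 258 and 171 to 222. No marker of these 4 lists was called for ablation at 22 °C, and none was at 0 throughout a group at 22 °C. Lymphocyte markers summed to at most 16.6 CPM in any liver, adipocyte markers to at most 13.3, pancreas markers to at most 19.3 and neutrophil markers to at most 51.9, while erythroid markers summed to 137 to 906. Their part in the values of the 10 genes was not tested.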

How the data were processed

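Liver messenger RNA of 24 mice was sequenced by the authors, and 3 tables of 12 libraries each were deposited. Per the file headers they hold raw read counts per gene, FPKM and gene length in bases (other). They also hold a signal headed by the library code alone, taken here as counts divided by a size factor within each table. Per the submitters' processing notes CASAVA, HISAT2, DESeq2 and the build GRCm39 (mm39) were used. The sources used here give no versions, counting program, annotation release or strandedness. Deposited FPKM and signal values were not tested.

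Counts were joined to 27802 genes (25892, 25229 and 25027 per table, 0 differences between tables). A gene absent from a table had fewer than 2 reads there and its 40326 missing values were set to 0. Libraries of a group differed by more than counting error (chi-square per degree of freedom 27.3 to 421), so all mice counted as replicates and no counting interval is given. Genes passing filterByExpr (20213) were tested two-sided with edgeR 4.0.16 (R 4.3.3) after TMM scaling, by the robust quasi-likelihood F test with 16 degrees of freedom left after fitting 8 group means (temperature, ablation and sex). Ablation and temperature effects average the sexes, and sex effects average the temperatures. SE is the size of the effect divided by the root of F. Log2 CPM used a prior count of 2. The procedure was checked on simulated counts. Alternatives were DESeq2 1.42.0, its size factors, no low-count filter, a term for Cre, 1 mouse line alone, each library left out, and the replicate block. Effects within each sex, counted beside these, were contrasts of the reported fit of all 24 libraries and not new fits. The block was not used because same-numbered libraries of different groups did not deviate together.

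The 10 genes, the lists and the rule for named genes (all 10 genes, called list members up to 4 per list, and 5 genes of highest rho) were chosen with earlier results of these data known. List members named without a call (Slco1a1, Mup3, Cd36) were chosen after their values were seen. Some list members are not reported here.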

Additional observations from a re-analysis of the deposited data

Results flagged for a closer look

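Of 50 combinations of a gene and a group of 4 to 10 mice, 3 held a mouse far from the others of its group, and chance alone gives about 1 in 20. Igfbp2 was 650.8 CPM in 30 °C control female 3, a BAC-AT1A-Cre mouse, and 452.9 to 485.7 in the other control females at 30 °C. Socs2 was 28.83 CPM in 30 °C control female 4, the female control that carried Cre, and 129.2 to 149.7 in the other 3. Bcl6 was 77.32 CPM in 22 °C control male 3 and 51.78 to 57.87 in the other control males; that mouse also held the highest Socs2 and Cish of the control males.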

How the results depend on the processing

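No value of the 10 genes that was called changed sign under any alternative. Of 1800 values 1681 kept their call, or stayed uncalled and within the SE of the reported fit. A call was lost in 6 and gained in 14, and 99 stayed uncalled but moved by more than that SE. In 124 an uncalled value had the other sign. Without the low-count filter 2 genes were called for ablation at 22 °C (Socs2 and Cish), 2 for temperature in ablated mice (the same genes), 1 for the difference between temperatures (Cish), 3 for the difference between sexes at 22 °C (Igfbp2, Socs2 and Cish) and 5 for sex in ablated mice. In that fit the SE of Cish for ablation at 22 °C fell from 0.55 to 0.16, and the cause was not tested. With a term for Cre 1 gene, Prlr, was called for sex in controls.

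Leaving out single libraries gave 1 to 3 called genes for sex in controls, 2 to 3 for sex in ablated mice, 0 to 1 for temperature in controls (Stat5b, without 30 °C control male 2) and 0 in the other comparisons. Without 30 °C control male 1 only Prlr was called for sex in controls. Over all genes, counts of calls varied far more. For ablation at 22 °C they were 19 in the reported fit, 400 without the filter, 144 by DESeq2, 0 with a term for Cre and 12 to 49 without single libraries; for ablation at 30 °C, 0, 74, 43, 0 and 0 to 807.

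With the replicate block the calls among the 10 genes were unchanged in number, 0 in the 7 comparisons of ablation and temperature, 2 for sex in controls and 3 for sex in ablated mice. Correlations of 33 same-numbered pairs across groups ran from -0.141 to 0.0956. Dropping the 2 Ai9 mice was chosen after seeing the data. Under DESeq2 size factors 44 of 45 correlations stayed within 0.1. Leaving out either 30 °C control male leaves 1 library in that group, whose spread is then taken from the other groups. Groups held 2 to 4 mice, which limits the precision of Socs2 and Cish most.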
